A study of Mus musculus with 180 samples.

Results

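Hearts of 4 wild-type mice given lipopolysaccharide (LPS) were compared with hearts of 4 wild-type mice given phosphate-buffered saline (PBS). LPS is a component of the outer membrane of Gram-negative bacteria that activates innate immunity through Toll-like receptor 4. The 8 libraries were all those of wild-type heart, out of 180 libraries from 15 tissues of 12 mice, and all genes of the deposited heart table were considered. All mice were female and aged 6 weeks, and the 8 wild-type mice were C57BL/6J. Mice 1 to 4 received PBS and mice 5 to 8 received 5 mg/kg LPS. All tissues were taken at 12 hours, after perfusion with PBS and EDTA. A further 4 heart libraries were from TNF-deficient animals, strain B6.129S-Tnftm1Gkl/J, treated with LPS at that dose. These 4 entered the estimate of the spread between libraries and the filter that set which genes were tested. Their response is not described. The labels give whole-tissue RNA and do not say which chambers of the heart were taken, so cardiomyocytes, vessels, fibroblasts and leukocytes contribute to each library together.

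Cardiomyocytes contract through sarcomeres under the control of calcium that is released from and pumped back into the sarcoplasmic reticulum, and they draw most of their ATP from mitochondrial oxidation of fatty acids. In endotoxaemia the heart is known for a reversible loss of contractile force. Endothelial cells, pericytes, fibroblasts and resident macrophages surround the myocytes, and each carries receptors for LPS, cytokines or interferons.

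Total counts were 1461860 to 1818065 per PBS heart and 1130595 to 1571674 per LPS heart. Values are given as signal, the authors' library-scaled counts, in which 1 count was worth 0.766 to 1.14 in these 8 libraries. A signal below about 10 therefore rests on few counts. Of 13820 genes in the table, 13297 reached a signal of 1 in 4 or more of the 12 heart libraries and were tested with limma on log2(signal + 1). At a Benjamini-Hochberg adjusted p below 0.05, 1307 genes were higher with LPS (9.83% of those tested) and 1641 were lower (12.3%). These shares are the background for the counts of list members below. With DESeq2 on the recovered counts the split was 1200 higher and 975 lower, so the share of calls that were higher was 44.3% with limma and 55.2% with DESeq2. After median-of-ratios scaling, another way to scale libraries, limma called 1493 higher and 1400 lower (51.6% higher). With edgeR the split was 1394 higher and 1462 lower (48.8% higher). Which direction held more calls therefore depended on the scaling and the tool. Among limma's calls on the authors' signal 581 genes were higher and 539 lower by more than 1 on the log2 scale, and 133 were higher and 35 lower by more than 2. The median change over all tested genes was -0.06. In 9.86% of the tested genes the 4 LPS libraries all lay above the 4 PBS libraries, and in 12.4% all lay below.

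The LPS libraries did not respond to the same extent. Among 994 genes that were called higher, had a mean signal of at least 10 and did not overlap between groups, mouse 6 lay nearest to the PBS mice for 565 (56.8%) and mouse 7 lay farthest for 491 (49.4%). Among 1171 such genes that were called lower, mouse 6 was nearest for 462 (39.5%) and mouse 7 farthest for 500 (42.7%). Leaving out mouse 6 raised the calls to 1381 higher and 1738 lower, and leaving out mouse 7 lowered them to 1120 higher and 1360 lower.

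The libraries carried the markers of heart muscle. The summed signal of 12 heart muscle identity genes was 48070 to 49180 in the PBS mice and 30830 to 34250 in the LPS mice, so the LPS mice held 63.3% to 70.3% of the PBS mean. Of the 12 genes 8 were called lower and 0 higher. Their changes had a median of -0.44 and ran from -1.39 to 0.03, so the members did not share the drop evenly. Fewer cardiomyocytes and less of these RNAs per cardiomyocyte cannot be told apart in whole-tissue RNA. The part of this drop in the changes of single muscle genes was not tested. Markers of neighbouring tissues were low. The 12 skeletal muscle markers summed to 0.578% to 0.756% of their level in skeletal muscle in the PBS mice and 0.654% to 0.728% in the LPS mice, 8 liver markers to 0.347% to 0.411% and 0.334% to 0.365% of liver, and 8 lung epithelium markers to 1.29% to 1.66% and 1.36% to 1.65% of lung. No member of these 3 lists was called, and without mouse 1 1 liver marker was lower. In the plot of marker sums, the heart muscle and ventricular sums of the LPS mice lay below those of all PBS mice, as did the mural and the monocyte and macrophage sums, while the endothelial sum, at 8206 to 9275 with PBS and 8327 to 9144 with LPS, overlapped.

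**Figure D1:**
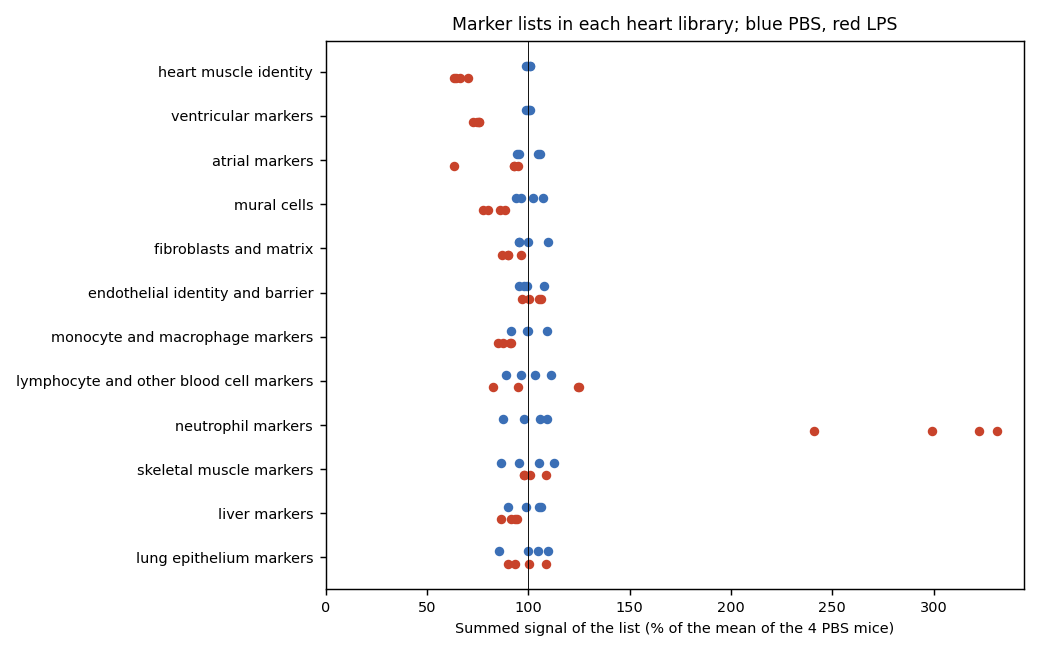
Summed signal of 12 marker lists in each of the 8 heart libraries, as a percentage of the mean of the 4 PBS mice (blue PBS, red LPS, 1 point per mouse). The 4 LPS mice sit at 63.3% to 70.3% for heart muscle identity and at 241% to 331% for the neutrophil list, and 1 LPS mouse stands apart at 63.1% for the atrial list. Without Lcn2 the neutrophil list summed to a signal of 575 to 736 with PBS and 735 to 919 with LPS, and the groups overlapped.

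In the contractile apparatus the cardiac actin Actc1 and the titin-bound Fhl2 fell with LPS, and the titin-associated stress protein Ankrd1 rose. Of 37 tested sarcomere genes 18 were lower (48.6%) and 4 were higher (10.8%), beside 12.3% and 9.83% over all genes, with a median change of -0.25. Actc1, the cardiac alpha-actin of the thin filament, had a signal of 12537, 13207, 11703 and 12446 in the PBS mice and 4849, 4217, 5422 and 4622 in the LPS mice. The groups were far apart, and the change was -1.39 (SE 0.09, adjusted p = 4.2e-13). Fhl2, a LIM-domain protein bound to titin that restrains hypertrophic signalling, went from 1656, 1846, 1812 and 1553 with PBS to 337, 489, 361 and 433 with LPS, a change of -2.09 (SE 0.10, adjusted p = 6.7e-16). Myh7b, a slow-type myosin heavy chain gene, had 17.0 to 22.8 in the PBS mice and 0 to 2.62 in the LPS mice, a change of -3.31 (SE 0.39, adjusted p = 1.3e-07) that is fitted close to the counting floor in the LPS mice. Lmod3, a leiomodin that builds thin filaments, fell from a mean of 91.5 ± 17.5 (SD, n = 4) to 15.2 ± 3.84, and Ldb3, a Z-disc protein, from 919 ± 31.7 to 513 ± 70.5. Csrp3, the Z-disc stretch protein MLP, fell by 0.83 on the log2 scale, with mouse 6 lowest at 635 and the other LPS mice at 1346 to 1746.

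The 4 sarcomere genes that rose were Ankrd1, Xirp1, Hspb7 and Pdlim5. Ankrd1, a nuclear and sarcomeric protein that binds titin and is induced by stretch and cytokines, had a signal of 429.6, 438, 635 and 515 in the PBS mice and 5063, 2245, 5706 and 4708 in the LPS mice. Its change of 3.07 (SE 0.17, adjusted p = 7e-14) was the largest rise in the list, and each LPS mouse lay above every PBS mouse. Xirp1, an actin-binding protein of the intercalated disc that marks muscle repair, had 84.5 to 110.2 with PBS and 233, 114, 628 and 303 with LPS. Mouse 6 lay just above the PBS range, and mouse 7 was highest. Hspb7, a small heat shock protein of cardiac muscle, rose by 0.56 (SE 0.10), and Pdlim5, a Z-disc scaffold, by 0.46 (SE 0.10) with overlapping groups.

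**Figure D2:**
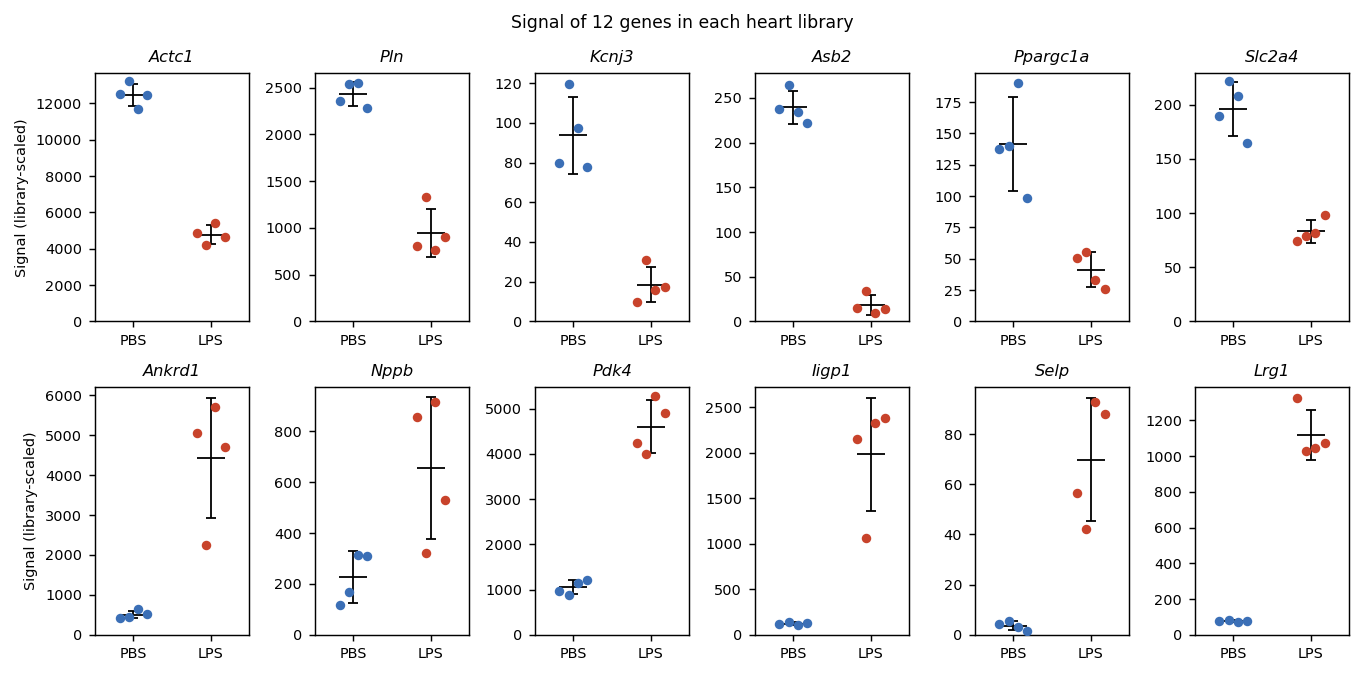
Library-scaled signal of 12 genes in each heart library (blue PBS mice 1 to 4, red LPS mice 5 to 8, left to right within a group), with the group mean and SD in black. In each of the 12 panels the 4 LPS mice lie on 1 side of the 4 PBS mice. Mouse 6 is the LPS mouse nearest to the PBS mice in every panel except Actc1 and Slc2a4, though for Lrg1 mice 7 and 8 lie close to it.

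Genes of calcium release and uptake were lower or not called. Of 31 tested genes 14 were lower (45.2%) and 0 higher, beside 12.3% and 9.83% over all genes, with a median of -0.30. With DESeq2, 10 were lower and 1 was higher, and after median-of-ratios scaling 13 were lower and 2 higher. Without mouse 5 or mouse 6 1 was higher. Pln encodes phospholamban, the peptide that restrains the sarcoplasmic calcium pump. Its signal was 2358, 2534, 2546 and 2285 in the PBS mice and 811, 1326, 764 and 898 in the LPS mice, a change of -1.39 (SE 0.11, adjusted p = 3.4e-11). The pump itself, Atp2a2, changed far less, from 7054 ± 398 to 5637 ± 206 (-0.32, SE 0.06, adjusted p = 0.00018), and the ryanodine receptor Ryr2, the calcium release channel, was at 729 ± 78.3 and 671 ± 56.3 and was not called (adjusted p = 0.38). Jph2, junctophilin, which holds the plasma membrane close to the sarcoplasmic reticulum, fell from 132 ± 25 to 44.3 ± 10.0 (-1.57, SE 0.16). Casq2, the calcium buffer of the reticulum, had 376, 404, 377 and 355 with PBS and 198, 200.5, 201 and 203 with LPS, the narrowest LPS range of the calcium genes named here. Cacnb2, a subunit of the L-type calcium channel, and Asph, the gene of junctin and junctate, fell by 1.28 (SE 0.22) and 0.98 (SE 0.12).

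Of 44 tested genes of ion channels and junctions 24 were lower (54.5%) and 4 higher (9.09%), beside 12.3% and 9.83% over all genes, and the median was -0.59. Kcnj3 and Kcnj5 encode the subunits of the acetylcholine-gated potassium channel that slows the heart. Kcnj3 had 79.8, 119, 97.2 and 78.0 in the PBS mice and 9.72, 30.8, 15.8 and 17.4 in the LPS mice (-2.37, SE 0.23, adjusted p = 3.2e-09). Kcnj5 had 48.8 to 61.6 with PBS and 8.75, 22.8, 3.39 and 15.7 with LPS (-2.30, SE 0.31, adjusted p = 1.9e-06). For both genes mouse 6 kept the highest LPS value. Kcnk3, a tandem-pore leak channel, fell from 237 ± 35.1 to 66.9 ± 9.81, and Kcne1, the accessory subunit of the slow delayed rectifier, from 23.1 ± 5.83 to 5.96 ± 2.50. The ATP-sensitive channel genes Kcnj11 (60.1 ± 8.74 to 20.7 ± 14.5) and Abcc8 (47.1 ± 9.71 to 15.8 ± 4.69), its sulphonylurea receptor, both fell. Kcne4 and Popdc2 were among the 4 that rose. Kcne4, an inhibitory potassium channel subunit, had 3.94 to 6.89 in the PBS mice and 31.1, 30.8, 48.6 and 27.9 in the LPS mice (2.51, SE 0.27, adjusted p = 2.7e-08), and Popdc2, a cyclic AMP-binding membrane protein of muscle, rose by 0.63 (SE 0.08). The groups of both genes did not overlap.

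Several of these channels are strongest in the atria, so the atrial list was read beside them. Of 14 tested atrial markers 8 were lower and 0 higher, with a median of -0.66, and 4 of the 14 were lower with DESeq2 or without mouse 7, and 5 without mouse 1, 2 or 4. The members did not move alike. Bmp10, a growth factor of the atrial wall, had 49.3, 34.0, 61.3 and 41.0 with PBS and 10.7, 6.84, 1.13 and 6.98 with LPS (-2.88, SE 0.49, adjusted p = 4.7e-05), and Mybphl, an atrial myosin-binding protein, fell by 1.37 (SE 0.30). The atrial light chain Myl7 fell by 0.69 (SE 0.21, adjusted p = 0.016) and sarcolipin, Sln, by 0.63 (SE 0.22, adjusted p = 0.034), and neither was called without mouse 7 (adjusted p = 0.061 and 0.14) or with DESeq2 (0.19 and 0.28). Leaving out mouse 8 or any 1 PBS mouse also ended the call of Sln, with adjusted p from 0.059 to 0.084. The atrial light chain Myl4 was at 724 ± 45.8 and 552 ± 81.9 (adjusted p = 0.21) and Nppa, atrial natriuretic peptide, at 2176 ± 342 and 2286 ± 647 (adjusted p = 0.96), neither called. With the 8 wild-type libraries alone Myl4 was called lower (adjusted p = 0.0029), and its groups did not overlap. Mouse 7 held the lowest summed atrial signal, 3986 against 5870 to 5993 in the other LPS mice and 5970 to 6679 in the PBS mice. Whether the amount of atrial tissue differed between libraries was not tested.

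Of 47 tested genes of adrenergic and cyclic nucleotide signalling 19 were lower (40.4%), 27 not called and 1 higher (2.13%), with a median of -0.46. Over all genes 12.3% were lower and 9.83% higher. DESeq2 called 10 lower and 2 higher, and without mouse 7 the lower count was 13. Without mouse 6 4 were higher and without mouse 5 2. Pde4a, a phosphodiesterase that breaks down cyclic AMP, fell from 49.9 ± 8.06 to 14.9 ± 6.95 (-1.77, SE 0.23, adjusted p = 6.7e-07), while Pde4b, another member of that family, was the 1 gene that rose. Pde4b had 49.3, 38.6, 28.3 and 17.3 with PBS and 95.3, 42.1, 222 and 113 with LPS (1.66, SE 0.30, adjusted p = 0.00012), with mouse 6 inside the PBS range. Akap6, an anchor of protein kinase A at the nuclear envelope and reticulum, fell from 84.2 ± 16.5 to 31.0 ± 4.10. Gucy1b1, a subunit of the nitric oxide receptor guanylate cyclase, fell from 19.2 ± 5.02 to 6.50 ± 2.11, and Adra1b, an alpha-adrenergic receptor, from 41.2 ± 5.22 to 22.1 ± 7.82. Adrb1, the main cardiac beta-adrenergic receptor, was called lower at low signal (14.3 ± 5.73 to 7.16 ± 2.46, adjusted p = 0.034), and its groups overlapped. It was no longer called when mouse 2, 3, 6 or 7 was left out (adjusted p from 0.081 to 0.17) and with DESeq2 (adjusted p = 0.11).

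Of 37 tested genes of cardiac stress 18 were higher, 2 lower and 17 not called. Nppb, B-type natriuretic peptide, which the heart secretes under strain, had 117, 166, 315 and 309.5 in the PBS mice and 857, 320.1, 913 and 531 in the LPS mice. The change was 1.53 (SE 0.26, adjusted p = 5.7e-05), although mouse 6 was only just above the highest PBS mouse. Rcan1, a calcineurin target and inhibitor, had 41.3 to 65.8 with PBS and 591, 237, 739.6 and 498 with LPS (3.16, SE 0.24, adjusted p = 5.1e-11). Timp1, an inhibitor of matrix proteases, rose from 15.2 ± 1.98 to 190.1 ± 22.3, and Junb, an early-response transcription factor, from 37.5 ± 4.42 to 229 ± 46.2. The 2 genes that fell were the fetal-type myosin Myh7 (-0.56, SE 0.14) and skeletal alpha-actin Acta1 (-0.27, SE 0.08), both of which rise in pressure overload. Acta1 was not called with DESeq2 (adjusted p = 0.15, change -0.22) or after median-of-ratios scaling (adjusted p = 0.087, change -0.22), nor without PBS mouse 2 or 4 (adjusted p = 0.08 and 0.059).

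Of 51 tested genes of metabolic regulation and mitochondrial upkeep 20 were lower (39.2%), 3 higher (5.88%) and 28 not called, with a median of -0.38. Over all genes 12.3% were lower and 9.83% higher. Ppargc1a, the coactivator PGC-1 alpha that drives mitochondrial biogenesis, had 137, 139.7, 189.9 and 98.4 with PBS and 50.6, 55.8, 32.7 and 26.2 with LPS (-1.78, SE 0.19, adjusted p = 4.3e-08). Its muscle-specific target and partner Perm1 fell from 135 ± 15.4 to 26.4 ± 5.69 (-2.33, SE 0.15), the orphan nuclear receptor Esrrg from 18.7 ± 2.70 to 4.89 ± 2.90, and the retinoid receptor Rxrg from 73.5 ± 10.2 to 23.6 ± 13.6. Enzymes of NAD synthesis went in opposite directions. Nampt, the rate-limiting enzyme of NAD salvage, rose from 244 ± 5.46 to 706 ± 85.2 (1.52, SE 0.08, adjusted p = 1.9e-14), and nuclear Nmnat1, which acts after it, fell from 40.9 ± 6.91 to 15.9 ± 6.22 (-1.37, SE 0.23, adjusted p = 3.3e-05).

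Most subunits of the respiratory chain were lower by small amounts. Of 53 tested subunits 41 were lower and 0 higher, and the median was -0.26 with a range of -0.52 to 0.02. After median-of-ratios scaling 30 were lower and with DESeq2 25, with medians of -0.21 in both. The complex I subunit Ndufs7 had 607, 594, 589.6 and 609.6 in the PBS mice and 436, 493, 373 and 378 in the LPS mice (-0.52, SE 0.08, adjusted p = 2e-05), and the heart and muscle form of a complex IV subunit, Cox7a1, fell from 2978 ± 183 to 2221 ± 79.9. The nearby citric acid cycle and branched-chain amino acid genes had 9 lower and 0 higher of 38 tested, a share of lower calls of 23.7% beside 12.3% over all genes, and 5 or 4 lower after median-of-ratios scaling or with DESeq2. Leaving out mouse 3 or mouse 7 also gave 5.

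Fuel genes split within their lists. Of 55 tested genes of fatty acid use 10 were higher (18.2%) and 12 lower (21.8%), beside 9.83% and 12.3% over all genes. Large rises were those of Angptl4, a circulating inhibitor of lipoprotein lipase (89.5 ± 13.6 to 323 ± 77.9), and the mitochondrial carrier Ucp3 (42.9 ± 11 to 92.6 ± 15.2). Among genes of lipid droplets the coat genes Plin2 (123 ± 11.1 to 385 ± 34.7) and Plin4 (148 ± 21.9 to 351 ± 51.8) rose, as did the triglyceride lipase Pnpla2 (303 ± 13.2 to 676 ± 61.0). The largest falls of the list were smaller, with the medium-chain dehydrogenase Acadm at 1284 ± 95.3 and 896 ± 28.3 and the ketone-using enzyme Oxct1 at 860.0 ± 47.7 and 579 ± 41.9. The count of lower genes depended on the method, with 7 after median-of-ratios scaling and 5 with DESeq2.

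Of 49 tested genes of glucose and glycogen use 8 were higher (16.3%) and 19 lower (38.8%), beside 9.83% and 12.3% over all genes. Slc2a4, the insulin-responsive glucose carrier GLUT4, had 189, 221, 208 and 165 with PBS and 73.9, 78.6, 81.3 and 98.6 with LPS (-1.23, SE 0.12, adjusted p = 2.6e-09). Tbc1d4, which controls the release of that carrier to the membrane, fell from 48.7 ± 12.6 to 22.2 ± 7.25, and the heart-type phosphofructokinase-2 gene Pfkfb2 from 26.8 ± 5.91 to 11.7 ± 4.46. The general carrier Slc2a1 (GLUT1) rose from 15.3 ± 4.63 to 34.0 ± 11.9 with overlapping groups, and the inducible phosphofructokinase-2 gene Pfkfb3 from 27.4 ± 3.94 to 80.6 ± 35.1. Pdk4, the kinase that shuts pyruvate out of the citric acid cycle, had 962, 879, 1145 and 1209.7 in the PBS mice and 4242, 3995, 5268 and 4910.0 in the LPS mice (2.14, SE 0.10, adjusted p = 1.9e-15). The groups were far apart, with the lowest LPS mouse at 3995.

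Ubiquitin ligase and autophagy genes were split evenly, with 12 higher and 12 lower of 46 tested. Each share was 26.1%, beside 9.83% higher and 12.3% lower over all genes. The losses were led by Asb2, a substrate receptor that targets filamins in muscle, with 238, 265, 234 and 221 in the PBS mice and 15.6, 34.2, 9.03 and 14 in the LPS mice. This was the largest fall among called genes with a mean signal of at least 10 in 1 group and no overlap between the groups (-3.80, SE 0.21, adjusted p = 6e-14). Asb10 and Asb15, of the same family, fell from 44.1 ± 1.93 to 11.1 ± 2.46 and from 68.2 ± 14 to 22.4 ± 11.9. The growth factor Igf1, counted in the list for its part in muscle mass, fell from 31.2 ± 4.88 to 10.7 ± 4.95. Among the 12 rises were Eif4ebp1, a brake on cap-dependent translation (108 ± 3.42 to 314 ± 45.8), Fbxo31 (83.5 ± 10.6 to 194 ± 30.5) and the atrophy ligase Fbxo32, atrogin-1 (121 ± 12.1 to 240.4 ± 33.6). Genes of autophagy and lysosomes were also among the 12. Asb4, which was not in the list and is named as 1 of the 25 largest rises, had 5.36 to 6.28 with PBS and 48.6, 26.2, 100.5 and 63.7 with LPS.

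Most interferon-responsive genes rose. Of 48 tested interferon-stimulated genes 42 were higher and 0 lower, with a median change of 1.62, and of 35 tested guanylate-binding protein and interferon-gamma response genes 30 were higher and 1 lower, with a median of 2.00. The second list was led by GTPases that attack the membranes around intracellular microbes. Iigp1 had 116, 141, 113 and 125 in the PBS mice and 2151, 1064, 2334 and 2387 in the LPS mice (3.93, SE 0.15, adjusted p = 8.3e-18). Igtp had 48.2 to 81.6 with PBS and 1176, 411, 1406 and 1465 with LPS, and its relative Irgm1 had 55.9 to 85.5 and 724, 319, 1019.6 and 919. Gbp6 rose from 5.88 ± 2.68 to 105 ± 39.0, and Gbp2 from 79.4 ± 9.38 to 571 ± 251. In all 5 of these genes mouse 6 was the lowest LPS mouse and still lay above each PBS mouse. Ifit1, Ifit3 and Ifit3b, which bind foreign RNA, rose by 3.78 (SE 0.19), 3.57 (SE 0.20) and 3.92 (SE 0.20). The checkpoint ligand Cd274 (PD-L1) had 17.6 to 32.3 with PBS and 353, 112, 693 and 462 with LPS. The chemokine Cxcl10 had 3.83 to 6.28 with PBS and 48.6, 9.11, 96.0 and 71.5 with LPS. Of the 6 interferon-stimulated genes that were not called 4 were Oas genes, which make the activator of RNase L, with changes of 0.21 for Oas1a, 0.14 for Oas2, 0.74 for Oas3 and 1.25 for Oas1g. Oas3 was called without mouse 1 (adjusted p = 0.033) and after median-of-ratios scaling (adjusted p = 0.048), and Oas1g without mouse 2, 4 or 8 (adjusted p = 0.03, 0.039 and 0.046). The 1 gene that fell in the second list was Ifngr2, a chain of the interferon-gamma receptor, from 213 ± 42.4 to 116 ± 5.57.

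Promoters of some of these genes are shown because the interferon-responsive genes moved together. Sequences are those of RefSeq on GRCm38.p6, from 250 bases before to 50 bases after the gene start, printed 5′ to 3′ on the gene's strand. Capitals mark matches to the core of an interferon-stimulated response element, written here as GAAA, any 2 bases and GAAA again. Both strands were searched, so that TTTC, 2 bases and TTTC is the same element read from the other strand. The windows are Ifit1 at chr19:34640639-34640938 (plus strand), Igtp at chr11:58199306-58199605 (plus strand), Irgm1 at chr11:48871371-48871670 (minus strand), Gbp2 at chr3:142620413-142620712 (plus strand), Cxcl10 at chr5:92348840-92349139 (minus strand) and Colec11 at chr12:28623281-28623580 (minus strand). Colec11, a collectin whose signal fell, is printed for contrast.
Ifit1: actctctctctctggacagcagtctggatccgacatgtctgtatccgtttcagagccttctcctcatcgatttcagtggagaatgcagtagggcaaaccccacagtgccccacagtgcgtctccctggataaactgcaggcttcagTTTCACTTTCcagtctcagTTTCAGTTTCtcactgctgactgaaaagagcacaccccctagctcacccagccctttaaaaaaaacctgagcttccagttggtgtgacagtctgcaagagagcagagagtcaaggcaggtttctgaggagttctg
Igtp: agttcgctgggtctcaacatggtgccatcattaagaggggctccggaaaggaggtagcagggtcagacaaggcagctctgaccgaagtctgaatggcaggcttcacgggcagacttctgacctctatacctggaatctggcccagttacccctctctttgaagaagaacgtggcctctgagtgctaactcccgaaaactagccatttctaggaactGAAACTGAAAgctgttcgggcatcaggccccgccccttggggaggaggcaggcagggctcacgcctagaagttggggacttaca
Irgm1: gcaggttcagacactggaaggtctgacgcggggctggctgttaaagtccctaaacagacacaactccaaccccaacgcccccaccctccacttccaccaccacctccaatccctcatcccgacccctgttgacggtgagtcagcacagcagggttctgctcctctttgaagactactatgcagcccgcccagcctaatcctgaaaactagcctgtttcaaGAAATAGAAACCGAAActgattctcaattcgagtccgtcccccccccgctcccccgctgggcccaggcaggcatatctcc
Gbp2: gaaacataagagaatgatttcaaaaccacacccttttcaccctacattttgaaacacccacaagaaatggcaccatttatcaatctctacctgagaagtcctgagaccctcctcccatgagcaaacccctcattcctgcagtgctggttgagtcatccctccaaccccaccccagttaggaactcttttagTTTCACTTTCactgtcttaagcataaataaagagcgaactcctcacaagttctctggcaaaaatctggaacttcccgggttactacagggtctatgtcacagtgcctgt
Cxcl10: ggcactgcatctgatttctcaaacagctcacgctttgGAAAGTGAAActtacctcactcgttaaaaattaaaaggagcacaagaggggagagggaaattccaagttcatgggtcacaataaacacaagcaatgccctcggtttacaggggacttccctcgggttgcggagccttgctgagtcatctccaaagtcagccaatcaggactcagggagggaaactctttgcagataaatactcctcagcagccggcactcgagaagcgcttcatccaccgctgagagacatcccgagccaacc
Colec11: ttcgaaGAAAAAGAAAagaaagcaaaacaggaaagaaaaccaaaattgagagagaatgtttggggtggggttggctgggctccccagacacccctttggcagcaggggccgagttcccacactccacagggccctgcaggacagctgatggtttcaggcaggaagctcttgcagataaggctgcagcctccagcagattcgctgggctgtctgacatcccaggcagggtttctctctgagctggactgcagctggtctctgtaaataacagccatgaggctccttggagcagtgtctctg

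Ifit1 held 2 matches and Irgm1 held 2 that overlap, and the other 4 promoters held 1 each. The matches began at -104 and -85 from the gene start in Ifit1, -34 in Igtp, -30 and -24 in Irgm1, -59 in Gbp2, -213 in Cxcl10 and -244 in Colec11. Of the 100 largest rises among called genes with a mean signal of at least 10 and no overlap 63 had a single RefSeq promoter, and 18 of these (28.6%) held the element. Over all 7899 tested genes with a single promoter the share was 3.44% (272 promoters), and among 57 promoters of the 100 largest falls it was 1.75% (1 promoter, Colec11). The interferon-gamma activated site, TTCNNNGAA, which the search finds on both strands because it reads the same on each, was in 17.5% of the rise promoters, 3.51% of the fall promoters and 6.7% of all. ACANNNTGT, a spaced pair of glucocorticoid receptor sites, was in 14.3%, 5.26% and 4.28%. A loose NF-kB pattern, GGG, any 5 bases and CC, was in 63.5%, 56.1% and 67.1%, so it did not separate the sets. A match is a description of these letters, and genes with several RefSeq promoters were left out.

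Most class I antigen presentation genes rose, and few class II genes were called. Of 22 tested class I and immunoproteasome genes 19 were higher and 1 lower. Tap1, which pumps peptides into the endoplasmic reticulum, had 32.9 to 43.2 with PBS and 171, 87.7, 249.5 and 194 with LPS (2.06, SE 0.18). Psmb10, an immunoproteasome subunit, rose from 64.7 ± 7.51 to 180.4 ± 42.8. The chaperone calreticulin, Calr, was the 1 gene that fell (-0.52, SE 0.10). Of 13 tested class II genes 2 were higher and 0 lower, a share of 15.4% beside 9.83% over all genes, and 2 were lower without mouse 7 and 1 without mouse 3. They were the protease Ctss and the costimulatory receptor Cd40, the latter with 4.48 to 6.13 in the PBS mice and 17.5, 5.70, 23.7 and 19.2 in the LPS mice.

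Of 42 tested genes of LPS sensing and NF-kB feedback 24 were higher, 1 lower and 17 not called, with a median of 0.82. Tlr4, the LPS receptor, was at 10.4 ± 3.62 and 13 ± 4.13 and was not called (adjusted p = 0.48). Its co-receptor Cd14 had 26.8 to 31.4 with PBS and 50.6, 55.8, 93.7 and 54.1 with LPS (1.06, SE 0.18, adjusted p = 6.5e-05). Ptgs2, the inducible cyclooxygenase, rose from 1.89 ± 0.977 to 23.2 ± 8.53, close to the counting floor in the PBS mice. The adhesion receptor Icam1, an NF-kB target, rose from 10.3 ± 4.06 to 65.2 ± 19.2. The gene that fell, Tnip3, did so at 0 to 5.36 signal with an adjusted p of 0.047, and leaving out mouse 1, 3, 4, 5 or 7 ended that call (adjusted p from 0.094 to 0.16), as did the 8 wild-type libraries alone (0.066) and median-of-ratios scaling (0.052).

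The largest cytokine rises were those of Csf3, a granulocyte growth factor, and of Il6. Of 50 tested cytokine, receptor and feedback genes 24 were higher (48%) and 5 lower (10%), beside 9.83% and 12.3% over all genes. Without mouse 4, 5 or 7 or with DESeq2, 3 were lower. Csf3, granulocyte colony-stimulating factor, had 0.897 to 3.83 in the PBS mice and 35.0, 19.4, 48.6 and 72.4 in the LPS mice (3.47, SE 0.37, adjusted p = 2.9e-08), and Il6 had 0.766 to 3.68 and 8.75, 9.11, 30.5 and 21.8 (2.56, SE 0.39, adjusted p = 1.2e-05). Tnf was called higher at low signal, with 6.28, 3.68, 3.06 and 8.66 in the PBS mice and 14.6, 7.97, 14.7 and 9.60 in the LPS mice (1.03, SE 0.32, adjusted p = 0.02), and its groups overlapped. Without mouse 2, 3, 5 or 7 it was not called (adjusted p from 0.059 to 0.084). Il1b was at 3.77 ± 1.32 and 6.87 ± 3.54 and was not called (adjusted p = 0.29). Osmr, the oncostatin M receptor, rose from 34.2 ± 6.94 to 162 ± 26.1, the feedback inhibitor Socs3 from 17.3 ± 1.62 to 99.3 ± 39.1, and the alarmin Il33 from 8.91 ± 3.32 to 36.1 ± 7.65. The 2 lower genes with the largest changes were Kitl, stem cell factor (-1.25, SE 0.23), and Lifr, the receptor of leukaemia inhibitory factor (-1.03, SE 0.17).

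Among 36 tested chemokine genes 18 were higher (50%) and 4 lower (11.1%), beside 9.83% and 12.3% over all genes. Neutrophil-attracting chemokines led, with Cxcl5 at 2.30 to 7.09 in the PBS mice and 48.6, 26.2, 129.8 and 57.6 in the LPS mice and Cxcl1 at 3.94 to 14.7 and 96.3, 69.5, 140.0 and 119. The monocyte chemoattractant Ccl2 had 17.0, 20.2, 19.1 and 21.3 with PBS and 236, 164, 294 and 289 with LPS (3.56, SE 0.15, adjusted p = 6.6e-17). Cxcl9, which attracts T cells, rose from 74.7 ± 7.71 to 665 ± 295. The homeostatic chemokine Cxcl12 fell from 133 ± 12.7 to 64.7 ± 12.5, and the macrophage chemokine Ccl6 from 70.7 ± 8.42 to 31.9 ± 7.75.

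Of 30 tested acute-phase genes 13 were higher, 0 lower and 17 not called. Among those not called, the fibrinogen chains Fga, Fgb and Fgg changed by -0.04, -0.07 and 0.05, and Saa1 and Saa2 by 0.14 and -0.18. Lrg1, a secreted leucine-rich glycoprotein of vessels, had 77.1, 82.7, 72.0 and 78.8 in the PBS mice and 1327, 1029, 1048 and 1076 in the LPS mice. Its change of 3.83 had the smallest standard error among the 25 largest rises (SE 0.09, adjusted p = 1.7e-22), and here mouse 6 did not differ from mice 7 and 8. Saa3, the serum amyloid A form made outside the liver, rose from 468 ± 50.9 to 3649 ± 379 (2.96, SE 0.08). Ptx3, a long pentraxin that binds microbes, had 39.0 to 55.1 with PBS and 358, 199, 1298 and 657 with LPS. Lcn2, lipocalin 2, which captures bacterial iron carriers, rose from 285 ± 24.2 to 2018 ± 371.

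Complement and clotting genes were called in both directions, the lower complement genes and the clotting genes at shares near those over all genes. Of 24 tested complement genes 8 were higher (33.3%) and 4 lower (16.7%), beside 9.83% and 12.3% over all genes. The lower count was 1 without mouse 5 or with DESeq2 and 2 without mouse 1, 3 or 4. Cfb, the protease of the alternative pathway, rose from 17.2 ± 5.07 to 42.0 ± 9.92. Of 34 tested coagulation genes 5 were higher and 5 lower, each 14.7% beside 9.83% and 12.3% over all genes. Fgl2, a membrane prothrombinase, rose from 73.4 ± 9.07 to 325 ± 75.0, and Plaur, the urokinase receptor, from 7.27 ± 4.48 to 28.5 ± 7.73. Thbd, thrombomodulin, which turns thrombin into an anticoagulant, fell from 88.9 ± 10.3 to 59.2 ± 4.52.

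Of 28 tested endothelial genes of adhesion and activation 12 were higher (42.9%) and 4 lower (14.3%). Of 63 tested genes of endothelial identity and barrier 12 were higher (19%) and 22 lower (34.9%). The shares over all genes were 9.83% and 12.3%. Selp, P-selectin, on which leukocytes roll, had 4.48, 5.51, 3.06 and 1.58 in the PBS mice and 56.4, 42.1, 92.6 and 88.1 in the LPS mice. Ch25h, which makes 25-hydroxycholesterol, rose from 5.08 ± 1.38 to 59.2 ± 20.6, and Vcam1 from 26.7 ± 4.43 to 70.9 ± 12.2. The placental growth factor Pgf, a ligand of a VEGF receptor, had 3.68 to 5.51 with PBS and 68.1, 29.6, 83.6 and 66.3 with LPS, the largest rise of the identity list. On the falling side Aplnr, the apelin receptor, went from 16.3 ± 1.22 to 2.75 ± 2.38 and Btnl9 from 20.4 ± 3.64 to 4.21 ± 3.07. The caveolar coat gene Cavin2 had 129 to 211 with PBS and 36.0, 76.3, 36.1 and 41.9 with LPS, and Tek, the angiopoietin receptor, fell from 30.0 ± 4.11 to 10.9 ± 2.91. The summed endothelial signal did not separate the groups (above).

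Mural cells are the smooth muscle cells and pericytes of vessels, and their genes were mostly lower. Of 27 tested genes 14 were lower and 1 higher, with a median of -0.62, and 2 were higher without mouse 6. Colec11, whose promoter is printed above, had 30.5, 32.2, 30.6 and 31.5 with PBS and 2.92, 6.84, 2.26 and 5.23 with LPS (-2.69, SE 0.26, adjusted p = 3.9e-09). The contractile smooth muscle genes Smtn (23.4 ± 3.88 to 7.53 ± 0.921) and Tagln (124 ± 11.7 to 55.8 ± 9.92) fell, as did Notch3 (23.3 ± 3.59 to 9.63 ± 3.35), which maintains mural cells. Steap4, a metalloreductase of inflamed tissue, was the 1 gene that rose, from 50.4 ± 3.17 to 232 ± 70.5. The summed mural signal was 2066 to 2357 in the PBS mice and 1701 to 1942 in the LPS mice.

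Most matrix genes of fibroblasts that were called fell, and the chains of basement membrane collagen rose. Of 54 tested genes 28 were lower and 5 higher (Lox, Col4a1, Col4a2, Dcn and Smoc2), with a median of -0.53. The shares were 51.9% lower and 9.26% higher, beside 12.3% and 9.83% over all genes. Col6a3, a chain of collagen VI, had 31.4 to 35.8 with PBS and 4.86, 15.9, 5.65 and 13.1 with LPS (-1.79, SE 0.30), and elastin, Eln, fell from 63.1 ± 13.1 to 19.0 ± 4.10 (-1.68, SE 0.18). Lox, which cross-links collagen and elastin, rose from 17.2 ± 1.22 to 49.4 ± 5.79, and Col4a1, a basement membrane collagen, had 321, 351, 346 and 372 with PBS and 888, 755, 956 and 967 with LPS (1.35, SE 0.08, adjusted p = 6.1e-13). Of 28 tested proteases and inhibitors 9 were higher (32.1%) and 5 lower (17.9%). The stromelysin Mmp3 was at 14.7 ± 5.35 and 63.5 ± 9.59 and the membrane-type protease Mmp15 at 41.0 ± 6.55 and 7.86 ± 2.61.

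Leukocyte markers gave no uniform increase. Of 25 tested neutrophil markers 6 were higher (24%) and 1 lower (4%), beside 9.83% and 12.3% over all genes. The list's summed signal was 825 to 1035 in the PBS mice and 2278 to 3136 in the LPS mice, or 3.03% to 3.79% and 8.35% to 11.5% of its level in bone marrow. Without Lcn2, which other cells also make, the sums were 575 to 736 and 735 to 919, and the groups overlapped. Of the genes that mark neutrophils 18 were not called, among them S100a8 at 113 ± 23.3 and 122 ± 11.2, S100a9 at 218 ± 17.8 and 249.6 ± 36.8, and Ly6g at 1.91 ± 0.842 and 2.77 ± 3.06 (adjusted p = 0.56, 0.25 and 0.99). The inducible receptor Clec4e rose from 2.99 ± 1.49 to 20.2 ± 3.79, and Clec4d rose by 2.22 (SE 0.43) from a level near the counting floor. Mpo, the granule peroxidase, was called lower, from 12.1 ± 3.00 to 6.31 ± 2.44 (adjusted p = 0.041), which ended when mouse 1, 2, 4 or 5 was left out (adjusted p from 0.094 to 0.17) and with DESeq2 (adjusted p = 0.16), the 8 wild-type libraries alone (0.056) or median-of-ratios scaling (0.052).

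Of 31 tested monocyte and macrophage markers 4 were higher and 6 lower, or 12.9% and 19.4% beside 9.83% and 12.3% over all genes, and DESeq2 called 3 lower. The summed signal of the list was 1422 to 1696 in the PBS mice and 1319 to 1419 in the LPS mice, all below the PBS mice. Cd163, the haemoglobin receptor of resident macrophages, fell from 16.3 ± 4.22 to 6.02 ± 2.27, and the Fc receptor Fcgr1 rose from 2.65 ± 1.32 to 12.5 ± 2.60. Of 33 tested lymphocyte and other blood cell markers 0 were higher and 1 lower, the mast cell protease Cma1, which missed the threshold when mouse 1, 3 or 7 was left out (adjusted p = 0.13, 0.05 and 0.12). The 9 thymocyte markers summed to 52.1 to 67.3 in the PBS mice and 38.4 to 152 in the LPS mice, with the highest value in mouse 5, and none of the 9 was called, while without mouse 7 2 were higher.

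Of 30 tested glucocorticoid and metallothionein genes 19 were higher and 2 lower, with a median of 0.99. Mt2, a metallothionein that binds zinc, had 474, 413, 459 and 592 with PBS and 5121, 3899, 6536 and 5239 with LPS (3.41, SE 0.11, adjusted p = 1.4e-19), and Mt1 rose from 928 ± 94.6 to 6671 ± 985. Of 48 tested genes of oxidative stress defence 14 were higher, 2 lower and 32 not called. Hmox1, haem oxygenase, had 11 to 28.4 in the PBS mice and 214, 83.2, 351 and 197 in the LPS mice (3.09, SE 0.29). Tfrc, the transferrin receptor, fell from 45.0 ± 10.3 to 17.8 ± 2.32, and Slc39a14, a zinc and iron importer, rose from 49.8 ± 2.16 to 205 ± 35.9.

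Of 42 tested heat shock and unfolded protein response genes 8 were higher (19%), 13 lower (31%) and 21 not called. Over all genes 9.83% were higher and 12.3% lower. Hspa5 (BiP), the main chaperone of the reticulum, had 448, 525, 756 and 793 with PBS and 308, 298, 269.9 and 362 with LPS (-0.99, SE 0.14), and Hsp90b1 fell from 533 ± 122 to 264 ± 19.7. The transcription factor Atf3 is in the list and was higher (1.40), and the cold-inducible RNA-binding gene Rbm3 rose from 113 ± 13.4 to 405 ± 59.4. Of 43 tested cell death genes 23 were higher and 2 lower, or 1 lower with any of mice 1, 3, 4, 7 or 8 left out. Among the higher were Casp4, the caspase that senses intracellular LPS (11.3 ± 5.11 to 59.9 ± 18.5), and Cdkn1a, the p53 target p21 (2.05). Of 52 tested ribosomal protein genes 29 were higher and 0 lower, with a median of 0.24 and a largest change of 0.44.

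**Figure D3:**
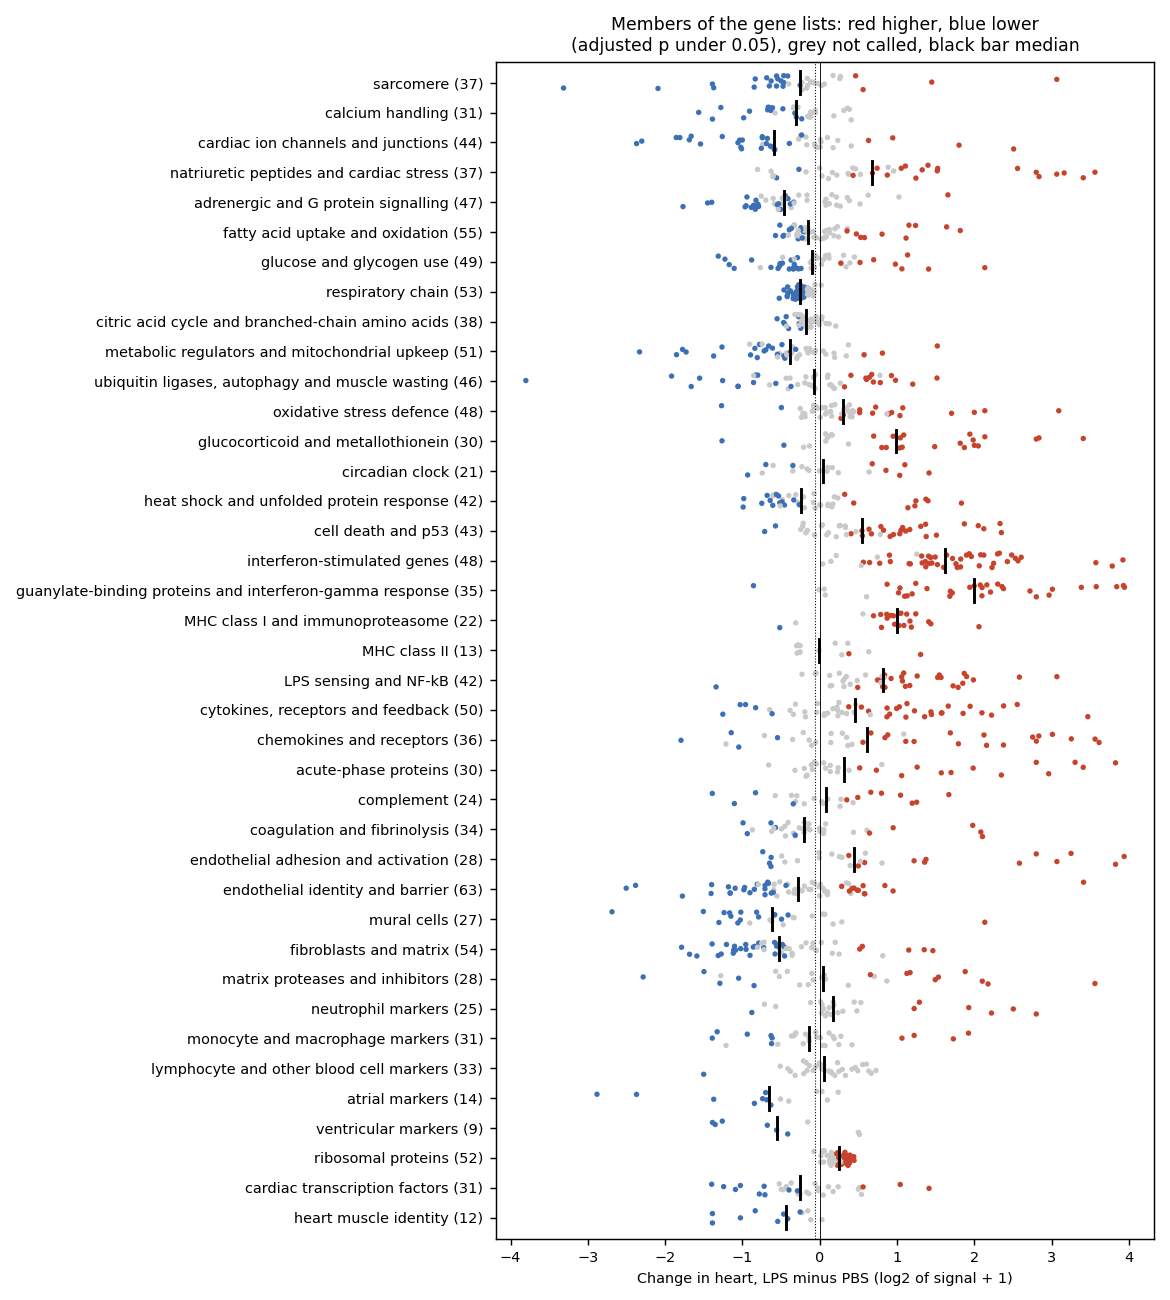
Change in heart, LPS minus PBS, on the log2(signal + 1) scale, for each tested member of the gene lists named at the left with the number tested (red called higher, blue called lower, grey not called, black bar the list median, dotted line the median of all tested genes at -0.06). Interferon lists lie to the right with medians of 1.62 and 2.00, and the ion channel, mural and atrial lists to the left with medians of -0.59, -0.62 and -0.66.

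The heart change was set against the mean change of the other 14 tissues of the same mice in 1 fit over all 180 libraries. Of 13820 genes 390 had a higher change in heart (2.82%) and 369 a lower one (2.67%). Leaving out mouse 2 gave 259 higher, leaving out mouse 7 gave 233 lower, and edgeR called 557 lower. Ankrd1 rose by 3.07 in heart, and the changes in the other tissues ran from -0.22 to 0.66 with a mean of 0.14, a difference of 2.93 (SE 0.23, adjusted p = 7.7e-22). Bcr, a GTPase-activating kinase, had 8.07, 10.1, 15.3 and 5.51 in the PBS hearts and 85.6, 30.8, 142 and 88.1 in the LPS hearts, and its range elsewhere was -0.68 to 0.73 (difference 3.07, SE 0.29, adjusted p = 2.2e-16). Both genes had a mean signal of at least 10 in the PBS or the LPS mice in each of the other 14 tissues. Rcan1 differed by 2.74 (SE 0.28) and Lrg1 by 2.33 (SE 0.22), and in both the heart change was above that of all 14 other tissues. Hmox1 differed by 2.25 (SE 0.24), although 1 other tissue had a larger change of 3.81.

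Some genes whose change was lower in heart had little signal elsewhere. Myh7b and Bmp10 reached a mean signal of 10 in 0 of the other 14 tissues, and Gpr22 and Kcnj3 in 1 each, so their values there lay close to the counting floor. Asb2 is different, since it reached that level in 5 other tissues, among them skeletal muscle. It fell by 3.80 in heart, against -1.60 to 0.12 elsewhere (difference -3.19, SE 0.41, adjusted p = 5.2e-10). Actc1 and Pln reached it in all 14 and Fhl2 in 13, and they differed by -1.28 (SE 0.17), -1.28 (SE 0.22) and -1.94 (SE 0.26). For Actc1 1 other tissue had a lower change, of -1.44. Of the 44 tested channel and junction genes 11 had a lower change in heart than in the other tissues and 1 a higher one. Of the 48 interferon-stimulated genes 15 had a higher change in heart and 1 a lower one. No respiratory chain gene of the 53 differed in either direction, and the median of their mean changes in the other tissues was -0.21 beside -0.26 in heart.

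Skeletal muscle, the other striated muscle of the series, was compared with heart directly in 24 libraries. Of 13697 tested genes 268 had a higher change in heart (1.96%) and 293 a lower one (2.14%). The ubiquitin ligases of muscle wasting set the tissues apart. Trim63, MuRF1, had 187, 221, 266 and 271 in the PBS hearts and 258, 284, 319.5 and 313 in the LPS hearts, a change of 0.32, whereas in muscle its mean went from 386 to 4175, a change of 3.50. The difference was -3.18 (SE 0.19, adjusted p = 6.2e-16), while the small heart change itself was not called without mouse 1, 2, 7 or 8 (adjusted p from 0.079 to 0.15). Fbxo32 rose in both, by 0.98 in heart and 2.66 in muscle (difference -1.68, SE 0.18, adjusted p = 1.1e-08). Depp1, a FOXO target, changed by 0.80 and 3.73, and the reticulum-phagy receptor Retreg1 by -0.62 and 2.32 (difference -2.94, SE 0.20). Of the 46 tested ubiquitin and autophagy genes 15 had a lower change in heart than in muscle and 1 a higher one.

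In the other direction the interferon-inducible GTPases Igtp and Iigp1 rose more in heart than in muscle. Igtp changed by 3.84 and 0.84 (difference 3.00, SE 0.30, adjusted p = 1.3e-09) and Iigp1 by 3.93 and 1.31 (difference 2.62, SE 0.26). Of 48 interferon-stimulated genes 16 and of 35 guanylate-binding and interferon-gamma genes 12 had a higher change in heart, and 0 a lower one in either list. Lrg1 changed by 3.83 and 1.11 and Ankrd1 by 3.07 and 0.66. Some losses were shared. Perm1 fell by 2.33 in heart and changed by -1.54 in muscle, with a difference of -0.79 (SE 0.28, adjusted p = 0.13), and Lmod3 by 2.53 and -2.04, with a difference of -0.49 (SE 0.40, adjusted p = 0.64). Neither difference passed the threshold, which does not show that the changes are equal. Pdk4 changed by 2.14 and 2.56 (difference -0.42, SE 0.19, adjusted p = 0.28).

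**Figure D4:**
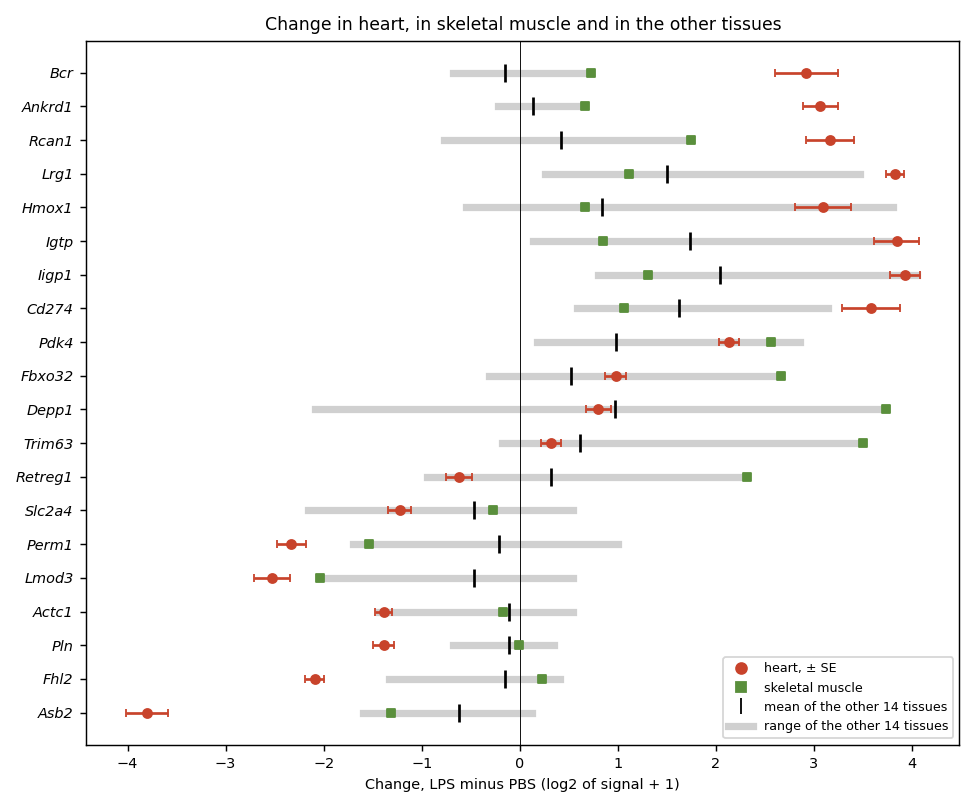
Change with LPS of 20 genes on the log2(signal + 1) scale in heart (red circle with SE), in skeletal muscle (green square), as the mean of the other 14 tissues (black tick) and as their range (grey bar). Ankrd1 and Rcan1 in heart lie beyond the grey bar on the right and Asb2 beyond it on the left, while Trim63 in heart lies at 0.32 against 3.50 in muscle.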

How the data were processed

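RNA from whole heart of 12 mice was read with a poly(A) 3′ tag library that carries a 10 bp molecular identifier, per the labels' protocols, which do not say whether identifiers were collapsed. The submitters' processing notes name edgeR, FastQC, MultiQC and mm10 (aligner: not given in the sources used here). The authors deposited library-scaled signal per gene, in tables named for CPM; library sums were 1287957 to 1392012 in the 8 hearts, so the values were treated as signal. Each deposited value was a whole multiple of 1 count (tolerance 0.1), so counts were recovered for edgeR 4.0.16 and DESeq2 1.42.0 as alternatives. The main test was limma 3.58.1 with a mean-variance trend on log2(signal + 1), a signal of at least 1 in 4 libraries, 9 residual degrees of freedom and Benjamini-Hochberg adjustment at 0.05. All changes, SE and adjusted p in the text are from it unless another tool is named, and a log2(signal + 1) change understates that of low genes. Per gene, groups hold 4 mice each (SD, n = 4). Heart was compared with the other 14 tissues in 180 libraries and with muscle in 24. Replicate pairs differed by 1.21 to 4.4 times the sampling noise (chi-squared per degree of freedom, 18 pairs), so none was a duplicate. The test in heart and a difference between heart and 1 other tissue in 24 libraries were run on simulated counts. Those counts had a fixed spread and no mouse effect. The comparison over 180 libraries was not simulated. Alternatives were the 8 wild-type libraries alone, edgeR, DESeq2, median-of-ratios scaling, no filter, a pseudocount of 0.25, each library left out, and the mouse as a block.

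Named genes were the 25 largest changes each way and up to 6 per gene list, among genes that were called, had a mean signal of at least 10 in the higher group and did not overlap between groups. List members called against the majority, and the 12 largest differences each way between tissues, were named without the rule on overlap. Members of the identity and marker lists and 12 preset genes (among them Tnf, Il1b, Tlr4 and Ryr2) were named whatever they did. Ldb3, Kcnj11, Abcc8, Junb, Acadm, Oxct1, Gbp2, Cd40, Thbd, Vcam1, Cma1, Hspa5, Hsp90b1, the 4 Oas genes, Fga, Fgb, Fgg, Saa1 and Saa2 fall outside this rule and were chosen after their values were seen. The comparison and the 47 gene lists were chosen with earlier results of these data known.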

Additional observations from a re-analysis of the deposited data

Results flagged for a closer look

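Among 380 groups of 4 mice examined for the named genes and marker sums, 23 held 1 mouse farther from the others than Dixon's 95% limit, where chance gives about 1 in 20. Mouse 7 accounted for 7 of them and mouse 6 for 4. In the LPS hearts mouse 7 was highest for Atf3 (91.5, next 32.1), Cd14 (93.7, next 55.8) and Kcne4 (48.6, next 31.1) and lowest for Myl4 (430.2, next 583). It also had the lowest summed atrial markers (3986, next 5870), the highest summed adipocyte markers (907.8, next 317) and the lowest summed mesothelium markers (108.4, next 132.3). Mouse 6 was highest for Cavin2 (76.3) and Tbc1d4 (33.0) and lowest for Ch25h (28.5) and Hspb7 (448). Mouse 5 was highest for Lrg1 (1327) and lowest for Smoc2 (122.5). In the PBS hearts mouse 1 was highest for Asb4 (6.28), Cma1 (8.97) and Nmnat1 (51.1). Mouse 2 was highest for Lmod3 (117.6) and lowest for Igf1 (23.9) and Osmr (23.9). Mouse 3 was lowest for Cd274 (17.6), Clec4e (0.766) and Smtn (17.6). Mouse 4 had the highest summed adipocyte markers (1143, next 547.6).

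The change with LPS differed between heart and the mean of the other 14 tissues for Ankrd1 (2.93), Bcr (3.07), Rcan1 (2.74), Lrg1 (2.33), Hmox1 (2.25), Asb2 (-3.19), Actc1 (-1.28), Pln (-1.28) and Fhl2 (-1.94) by the test of the difference in limma. It differed between heart and skeletal muscle for Trim63 (-3.18), Fbxo32 (-1.68), Depp1 (-2.93), Retreg1 (-2.94), Igtp (3.00), Iigp1 (2.62), Lrg1 (2.71) and Ankrd1 (2.40). These are the differences given in the report, and their causes were not tested.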

How the results depend on the processing

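No paired analysis was possible because the PBS and LPS hearts came from different mice. Across tissues, with the mouse as a replicate block, 398 genes had a higher and 390 a lower change in heart than the other 14 tissues, and 270 and 296 than skeletal muscle. Leaving out 1 heart library gave 1120 to 1381 genes higher and 1333 to 1738 lower with LPS. Leaving out 1 mouse gave 259 to 383 and 233 to 365 against the other tissues, the lowest without mouse 2 and mouse 7, and 186 to 270 and 226 to 333 against muscle. DESeq2 called 975 genes lower with LPS against 1641 in limma, and limma after median-of-ratios scaling called 1400. With edgeR 557 genes had a lower change in heart than in the other tissues, against 369 in limma. The causes were not tested. No named gene or tissue difference reversed its direction where the main or the alternative run called it. Changes of sign between uncalled runs were not counted. Of 94 counts of list members called higher or lower, 25 moved beyond a fixed ratio in some alternative. Of 172 named genes 9 lost their call in some alternative (Acta1, Adrb1, Cma1, Mpo, Myl7, Sln, Tnf, Tnip3 and Trim63). A signal near that of 1 count limits what can be read from genes such as Myh7b, Ptgs2 and Clec4d.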
